A study of Mus musculus with 18 samples.

Results

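The proteasome subunit genes of mouse embryonic stem cells (mESCs) were followed through a panel of siRNAs to *Stag1*, which encodes a cohesin subunit. A gene was a member when its symbol began with Psma, Psmb, Psmc, Psmd, Psme, Psmf or Psmg and a digit, and 50 of the 18659 genes in the table of normalized reads met this rule. Male E14 mESCs grown in serum with LIF carried siRNAs for 24 h, and their RNA was sequenced after removal of rRNA. The 16 libraries fall into 3 replicate sets. The first has scrambled siRNA (scr, 1 library) and the SmartPool to *Stag1* (SP, 3 libraries named 1a, 1b and 1c). Both later sets have 1 library for each of 5 siRNAs, namely scr, SP, 3p, 5p and SATS. The 3p and 5p siRNAs were aimed at either end of the *Stag1* mRNA. SATS was a pool of enzymatically made siRNAs against the 5′ UTR of transcripts from an upstream start site. The 5p siRNA was 1 custom duplex, so its results rest on 1 sequence. The 3p siRNAs were commercial ones whose catalogue endings are also listed for SP, so SP and 3p may not be independent. Set 2 also held untreated cells and set 3 a luciferase siRNA (luc). The authors describe their replicates as independent. The sources used here do not say how the libraries of 1 set relate to separate cultures, nor how 1a, 1b and 1c differ. The p-values measure the spread between these libraries, which may be partly technical.

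The proteasome degrades proteins that carry ubiquitin. Its 20S core is a barrel of alpha rings (Psma) around beta rings (Psmb), of which *Psmb5*, *Psmb6* and *Psmb7* supply the catalytic sites. The 19S particle caps the barrel. Its base holds the ATPases (Psmc) that unfold the substrate, and its lid (part of Psmd) removes the ubiquitin. In immune cells, and in other cells after interferon, *Psmb8*, *Psmb9* and *Psmb10* replace the catalytic subunits and *Psme1* and *Psme2* form the 11S activator, which serve the supply of peptides for antigen presentation. The transcription factor encoded by *Nfe2l1* raises many subunit genes together when the proteasome is inhibited. *Psmc3ip* met the rule by its symbol, but it encodes a recombination factor that binds an ATPase and is no subunit.

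Values are reads on a gene divided by 1 size factor per library, from which whole reads were recovered. Depth on genes was 9023224 to 14040830 reads for set 1, where the rRNA precursor *Rn45s* took 69.2% to 79.1%, and 32137666 to 45660840 reads for the 12 libraries of sets 2 and 3, where it took 14.7% to 23.9%. The members together took 9407 to 24723 reads in a library of set 1 and 180315 to 280759 in the others. Of the reads outside *Rn45s*, this was 0.499% to 0.572% in set 1 and 0.687% to 0.804% in sets 2 and 3. Values of set 1 therefore carry a larger counting error. *Stag1* stood at 1876 and 2113 in scr of sets 2 and 3, at 365 to 441 in the SP, 3p and 5p libraries of those sets, and at 947 and 1051 in SATS. In set 1 it stood at 2016 in scr and at 512 to 660.4 in SP, so that each siRNA library went the way of its label. The 7 embryonic stem cell markers were present in every library, with a summed value of 24270 to 55180, while the 5 primitive endoderm markers summed to 148 to 496 and the 5 fibroblast markers to 96.5 to 5635, with the highest value of the latter in the untreated library and 1 marker of each list at 0 in some library. In bulk RNA, fewer cells of a type and less RNA per cell cannot be told apart.

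The genes of the 26S proteasome were among the higher expressed genes of these cells, and so were the activator genes *Psme3* and *Psme4*, while the immunoproteasome, thymus and germ-cell forms were far lower. To compare genes, the mean value over the 12 libraries of sets 2 and 3 was divided by the exon length in kb. The 31 genes of the standard core and cap, without the germ-cell alpha subunit *Psma8*, ran from 764 for *Psma3* to 3320.2 for *Psmb6*, a 4.35-fold range. Their median of 1322 lay above 94.7% of the 10661 genes whose mean value reached 50 and whose length was known. By role, the median level per kb was 2357 for the 7 constitutive beta genes, 1415 for the 6 ATPases and 1187 for the 8 lid genes. For the 8 alpha genes it was 1380.5 with *Psma8* (54.3) included. Without *Psma8*, the middle alpha gene was *Psma4* at 1456. *Psmb6* (3320.2 ± 228, SD over 12 libraries, 3040.5 at the lowest) did not overlap the next gene, *Psmb4* (2677 ± 264, 2981 at the highest). It overlapped genes further down, *Psmb7* (2288 to 3490), *Psma7* (2173 to 3088) and *Psmb3* (1980.3 to 3285), which also overlapped each other. Exon lengths take in long alternative 3′ ends, as for *Psma2* and *Psma3*, and lower the level per kb of such genes.

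Among the catalytic beta genes the constitutive form was the higher in all 12 libraries. Per kb, the level of *Psmb5* was 15.7 to 32.9 times that of *Psmb8*, the level of *Psmb6* was 191 to 360.3 times that of *Psmb9*, and the level of *Psmb7* was 11.2 to 18.3 times that of *Psmb10*. The ratio of *Psma7* to its germ-cell relative *Psma8* was 38.1 to 58.1 per kb. *Psmb11*, the beta subunit of the thymus, had 0 to 8 reads in a library and was at 0 in all of set 1 and in SP of set 3. *Psmb9* had 30 to 53 reads in a library of sets 2 and 3, and 212 bp of its exons (chr17:34181987-34187764, minus strand) lie opposite exons of *Tap1*. The library kit keeps the strand, and counting by strand is stated for paired-end libraries, but which libraries were paired-end is not given in the sources used here, so reads of such opposite exons may be shared. The genes for assembly factors were lower than those of the particles they build, with medians per kb of 283 for the 4 chaperones of the 20S core (*Psmg1* to *Psmg4*) and 161 for the 3 of the 19S base (*Psmd5*, *Psmd9* and *Psmd10*). The activator genes *Psme4* (1118) and *Psme3* (1084) lay within the range of the core and cap per kb, *Psme1* (629) and *Psme2* (594) just under it, and *Psmf1*, which encodes the inhibitor PI31, at 130.

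**Figure D1:**
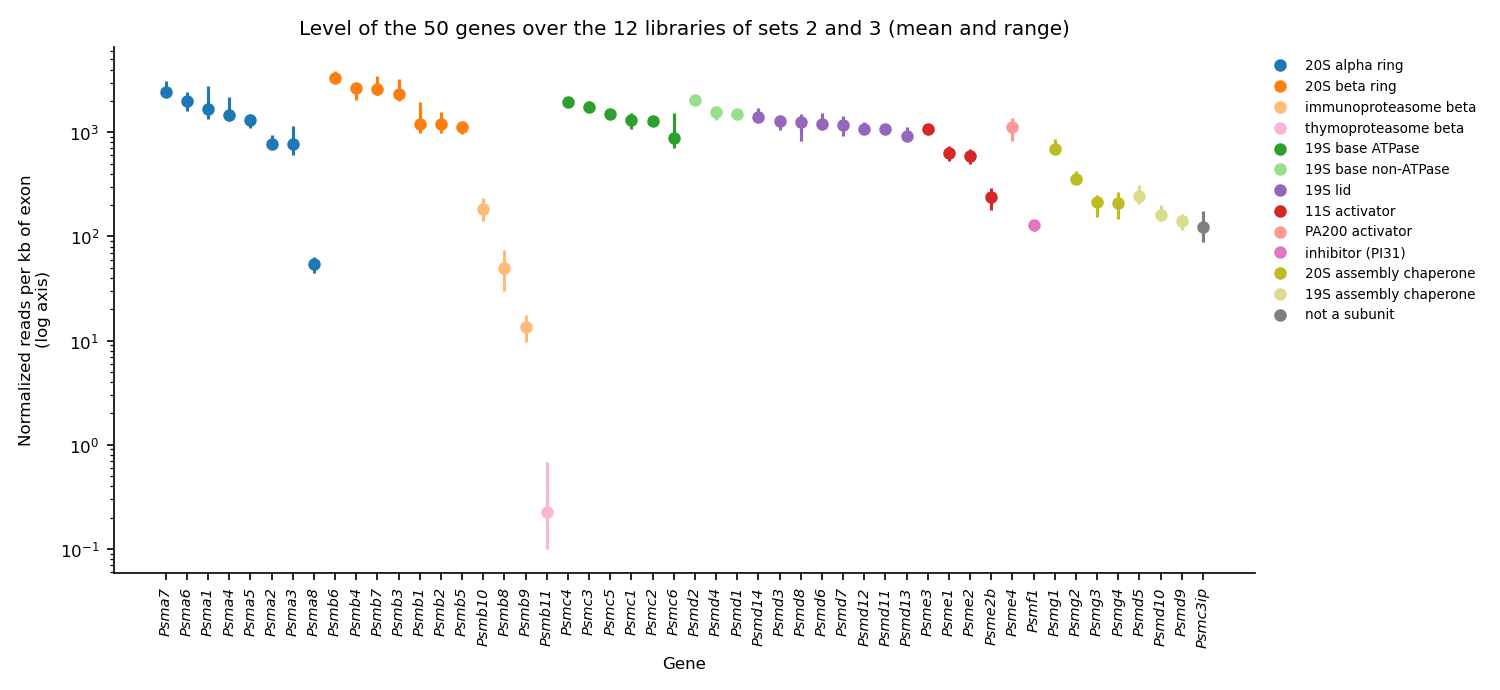
Level of each of the 50 genes as normalized reads per kb of exon on a log axis, with a point for the mean and a line from the lowest to the highest of the 12 libraries of sets 2 and 3 (the line of *Psmb11* is drawn down to 0.1, since 1 library was at 0). The 31 genes of the standard core and cap sit between 764 and 3320.2, and *Psmb8*, *Psmb9*, *Psmb11* and *Psma8* sit far below them.

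Promoters were searched because the *Nfe2l1* factor acts through the antioxidant response element, whose core is TGACNNNGC, and CCAAT boxes were searched as a common promoter element. RefSeq promoters (250 bases before to 50 after the start, GRCm38.p6) were at hand for 42 members. On either strand, TGACNNNGC was found in 6 of the 42 (14.3%) and in 13.99% of all 27025 promoters. CCAAT was found in 15 members (35.7%) and in 41.1% of all promoters. The shares of the members were thus close to, or below, those of promoters at large, and a match is a description of letters, not a bound site. The windows around the 6 matches are shown, with the match in capitals. They include the catalytic genes *Psmb5* and *Psmb6* and the ATPase gene *Psmc6*, a member called in SATS below.
*Psmb5* (chr14:54618024-54618052, minus strand, 47 bases before the start): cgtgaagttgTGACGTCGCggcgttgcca
*Psmb6* (chr11:70525338-70525366, plus strand, 9 bases before the start): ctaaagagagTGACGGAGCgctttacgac
*Psmc6* (chr14:45329587-45329615, plus strand, 227 bases before the start, match on the opposite strand): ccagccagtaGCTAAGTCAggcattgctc
*Psmd9* (chr5:123228149-123228177, plus strand, 31 bases before the start): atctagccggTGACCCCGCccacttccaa
*Psmd12* (chr11:107479278-107479299, plus strand, 247 bases before the start, match on the opposite strand): tctGCTGTGTCAcatttgcccc
*Psme4* (chr11:30771758-30771786, plus strand, 7 bases before the start, match on the opposite strand): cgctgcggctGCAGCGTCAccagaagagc

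Each siRNA was then compared with scr to ask whether loss of *Stag1* RNA moved the proteasome genes. Most of them stayed close to scr. Over the 10 libraries of sets 2 and 3, limma was fitted on log2(value + 1) across 16490 genes, of which 49 were members (all but *Psmb11*, too low to test). The threshold for a call was an adjusted p (Benjamini-Hochberg over all genes) under 0.05. Without the set as a term, 0 of 49 members were called in any comparison, where all genes gave 0.00606% for SP, 0.00606% for 3p, 0.0121% for 5p, 0% for SATS and 0% for 5p against 3p. At an unadjusted p under 0.05 there were 1 member for SP (2.49% of all genes), 1 for 3p (1.73%), 1 for 5p (3.63%), 7 for SATS (3.94%) and 1 for 5p against 3p (4.09%). On the recovered reads, edgeR and DESeq2 without the set also called 0 members in these comparisons. DESeq2 gave no adjusted p for 11 members in 3p, 10 in SATS, 2 in 5p and 1 in 5p against 3p. Libraries of the same set deviated together, so the set was also used as a block. With it limma called 0 members for SP (0.746% of all genes), 0 for 3p (0.285%), 0 for 5p (2.37%), 2 for SATS (2.64%) and 1 for 5p against 3p (3.26%). The blocked counts at an unadjusted p under 0.05 were 6 members for SP (12.5% of all genes), 3 for 3p (10.4%), 5 for 5p (15.7%), 19 for SATS (18.8%) and 7 for 5p against 3p (15.8%). In SATS alone was the count of members well above the background share at this threshold. With the block, edgeR called 1 of 50 members for SP (0.881% of all genes), 0 for 3p (0.364%), 0 for 5p (2.45%), 2 for SATS (3.48%) and 1 for 5p against 3p (3.13%). Its counts at an unadjusted p under 0.05 were 7 members for SP (12% of all genes), 5 for 3p (9.97%), 5 for 5p (14.8%), 20 for SATS (18.2%) and 7 for 5p against 3p (14.6%). The 4 comparisons with scr share their scr libraries and are not independent of each other.

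**Figure D2:**
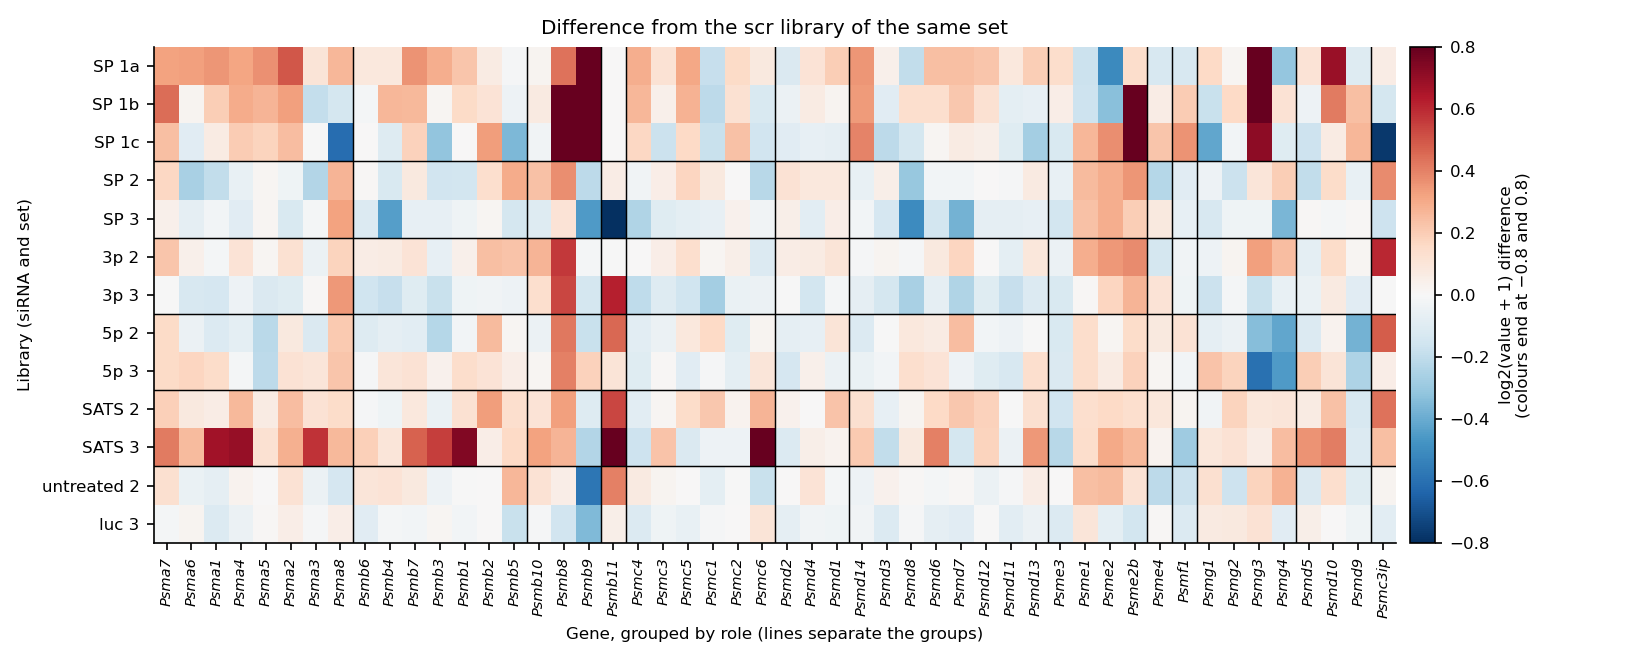
Difference in log2(value + 1) between each library and scr of its set (rows) for the 50 genes (columns, grouped by role), red for higher and blue for lower than scr. Most cells are pale, the red block of 20S genes lies in SATS of set 3, the blue pair in both 5p rows is *Psmg3* and *Psmg4*, and the deep red of *Psmb8* and *Psmb9* in set 1 rests on 1 to 9 reads a library.

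SATS gave the widest shift. *Psmc6*, an ATPase of the 19S base (chr14:45329788-45349705, plus strand), stood at 1843 in scr and 2222 in SATS of set 2 and at 1804 and 3446 in set 3. It lay between 1578 and 1939 in the other 8 libraries of sets 2 and 3, so that both SATS libraries were above all others. Its log2 fold change was 0.60 (SE 0.12 with the block, adjusted p = 0.0273 by limma). *Psma4*, an alpha subunit (chr9:54950790-54958030, plus strand), stood at 1634 and 1955 in set 2 and at 1576 and 2559 in set 3. The remaining libraries ran from 1479 to 1761, again below both SATS libraries. Its log2 fold change was 0.48 (SE 0.11, adjusted p = 0.0369 by limma with the block). Some 114 bp of its exons lie opposite exons of *AY074887*. These were the 2 members called, and both were called by edgeR with the block as well (adjusted p = 0.0160 and 0.0254). Without the block their adjusted p in limma was 1.00 each.

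The shift was not limited to the called members. Of the 49 members, 40 were higher in SATS, with a median log2 fold change of 0.15, against 49.3% of all genes and a median of 0.00. Within sets, 33 of the 48 members whose mean value reached 50 were higher in both and 5 were lower in both. *Psmb1*, a beta subunit, went from 1907 to 2078 in set 2 and from 2077 to 3473 in set 3 (log2 fold change 0.43, SE 0.12, blocked adjusted p = 0.0778 by limma). The alpha genes *Psma1* and *Psma3* stood at 3329 and 3256 in SATS of set 3, against 2088 and 2179 in scr. On the lower side were *Psme3*, the nuclear 11S activator (−0.19), the lid gene *Psmd3* (−0.13) and the ATPase gene *Psmc4* (−0.12), none of them called. By particle, the 14 alpha and constitutive beta genes of the 20S core without *Psma8* had a median difference from scr of 0.10 in set 2 (11 higher) and 0.35 in set 3 (14 higher). The 17 genes of the 19S base and lid had 0.13 (14 higher) and 0.03 (9 higher).

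The size of the shift rested on the SATS library of set 3. There, 16 of 48 members were at least 1.2-fold above scr (17.3% of all genes) and 1 was as far below (9.88%). In set 2 there were 4 (9.52%) and 0 (6.75%). In a fit with no set term and no SATS library of set 3, the median of the members was 0.09 in place of 0.15. There *Psmc6* was at 0.29, *Psma4* at 0.28 and *Psmb1* at 0.06.

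Transcript length and GC content moved with this result. The 48 members are short, with a median exon length of 1454.5 bp against 3277 bp over 10661 genes, and 25 of them (52.1%) are under 1500 bp against 1389 of those 10661. In the SATS library of set 3, all genes under 1500 bp had a median difference from scr of 0.19 and those under 1500 bp with a GC content under 46% a median of 0.55. In set 2 these were 0.07 and 0.19. Across the 10661 genes of 1 library pair, Spearman's rho of the difference with GC content was −0.40 in set 2 and −0.31 in set 3, and with length −0.12 and −0.35. Trends with GC content were seen in other pairs as well, with a rho of 0.39 for SP of set 2 and 0.49 for untreated cells. *Psmc6* has the lowest GC content of the members (37.0%). When smooth trends with length and GC content were removed from each library, in a fit added after the data were seen, the median of the members in SATS was −0.01 and 0 of 48 were called (1.95% of all genes), with 7 members at an unadjusted p under 0.05 (20.3% of all genes). *Psmc6* was then at 0.16 (adjusted p = 0.354) and *Psma4* at 0.22 (adjusted p = 0.138, both by limma with the block). What else differed between the SATS and scr libraries was not tested.

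**Figure D3:**
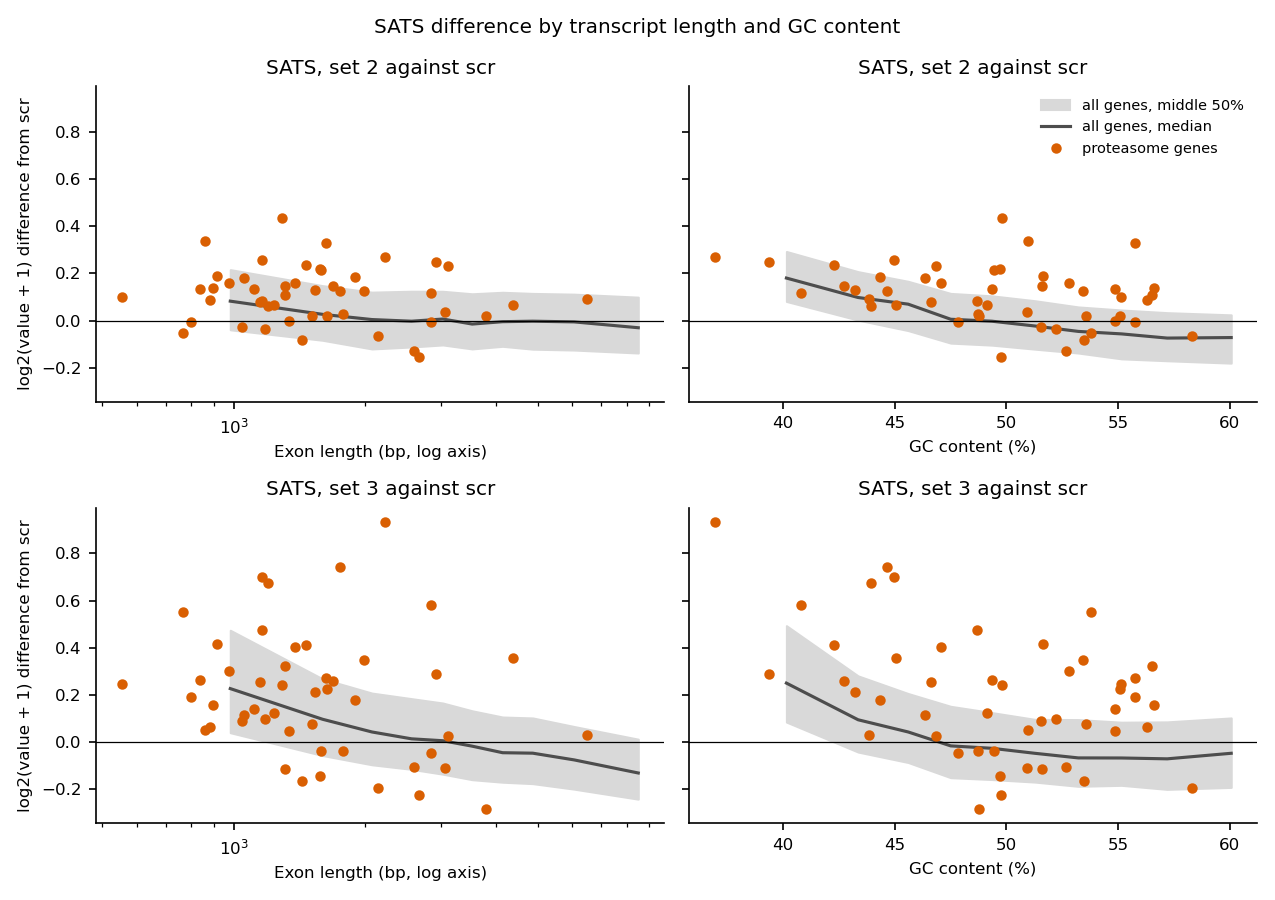
Difference in log2(value + 1) between SATS and scr in set 2 (top) and set 3 (bottom) against exon length on a log axis (left) and GC content (right), for 48 proteasome genes (points) and for all genes (line for the median and band for the middle 50% in 10 bins of about 1068 genes). Short genes and genes of low GC content lie above 0 among all genes as well, more so in set 3, where *Psmc6* is the highest point.

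With 5p, an assembly chaperone of the 20S core was lower than with every other siRNA. *Psmg3* (chr5:139823592-139826885, minus strand) stood at 136 and 135 in 5p of sets 2 and 3. It was 173 and 205 in scr, 217 and 181 in 3p, 185 and 200.3 in SP, 184 and 214 in SATS, 196 in untreated cells and 222 in luc. Both 5p libraries were thus below the other 10. Against 3p its log2 fold change was −0.55 (SE 0.13 with the block, adjusted p = 0.0328 by limma), and edgeR with the block called it as well (adjusted p = 0.0236). Against scr it was −0.47 and missed the threshold (adjusted p = 0.0735 by limma with the block). *Psmg4*, another 20S chaperone, stood at 90.2 and 81.0 in 5p against 121 and 111 in scr and 143 and 107 in 3p. Its value in SP of set 3 (86.0) lay between the 5p libraries. Its log2 fold change was −0.43 against scr and −0.53 against 3p (blocked adjusted p = 0.190 and 0.0970 by limma). *Psmd9*, a chaperone of the 19S base, stood at 322 and 298 in 5p and at 419 and 354 in scr, a log2 fold change of −0.31 (blocked adjusted p = 0.0967 by limma). In fits with no set term, *Psmd9* was at −0.19 without scr of set 2, and *Psmg4* against 3p at −0.32 without 3p of set 2. The 4 other chaperone genes were not called and stood at 0.08 (*Psmg1*), 0.07 (*Psmg2*), 0.04 (*Psmd5*) and 0.07 (*Psmd10*) in 5p against scr.

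After length and GC trends were removed, 4 of 48 members were called for 5p, a share near that of all genes (8.09%). All 4 were lower, where 5.02% of all genes were called lower. They were *Psmg3* (−0.51, adjusted p = 0.0141), *Psmg4* (−0.52, 0.0245), *Psmd9* (−0.29, 0.0410) and the alpha gene *Psma5* (−0.26, 0.0163), by limma with the block. *Psma5* stood at 1364 and 1471 in 5p and at 1583 and 1698 in scr, below the range of the other siRNAs (1566 to 1848). The 3 members furthest above scr in both sets were *Psmb8* (0.41), *Psmc3ip* (0.27) and *Psma8* (0.22), none called in either blocked fit. Against 3p, *Psmd8* (0.24), *Psmc1* (0.21) and *Psmd7* (0.14) were the furthest above. In the fit without length and GC trends 4 of 48 members were called, a share near that of all genes (9.28%). These were *Psmg3* (−0.56), *Psmg4* (−0.55) and *Psme2* (−0.24) as lower and *Psmd8* (0.24) as higher. The medians over all 49 members were 0.03 for 5p against scr and 0.01 for 5p against 3p, beside 0.01 and 0.02 for all genes.

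**Figure D4:**
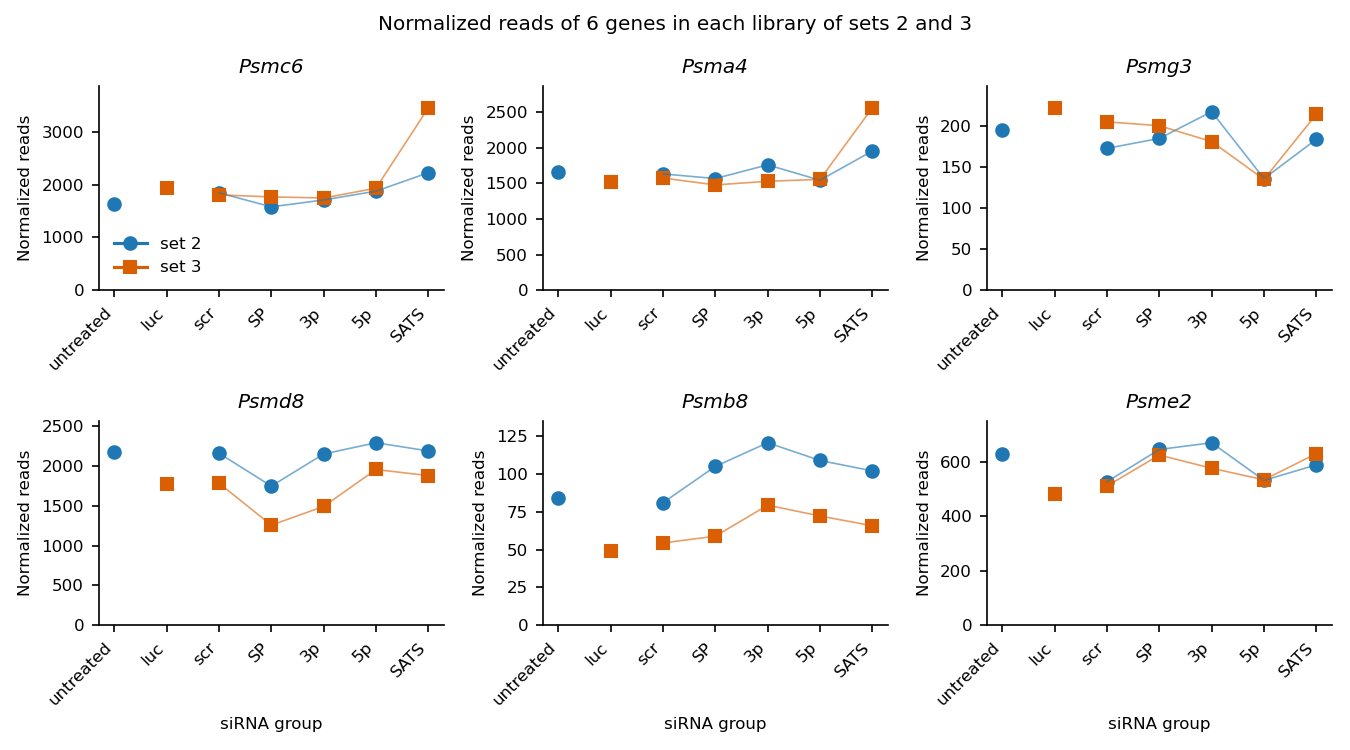
Normalized reads of *Psmc6*, *Psma4*, *Psmg3*, *Psmd8*, *Psmb8* and *Psme2* in each library of set 2 (circles) and set 3 (squares), on linear axes from 0, with lines joining the siRNA libraries of 1 set. *Psmc6* and *Psma4* are highest in SATS, *Psmg3* is lowest in 5p (136 and 135), *Psmd8* is lowest in SP in each set, and *Psmb8* is lower in every library of set 3 than in its counterpart of set 2.

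With SP, the lid gene *Psmd8* was the member furthest below scr, and its call depended on the fit. *Psmd8* (chr7:29174188-29180701, minus strand) stood at 2157 and 1781 in scr and at 1745 and 1256 in SP of sets 2 and 3, the lowest value of its set each time. Its values in 3p were 2148 and 1490.0, in 5p 2289 and 1954 and in SATS 2186 and 1876. The log2 fold change in SP was −0.40 (SE 0.09, adjusted p = 0.0536 by limma with the block). It was past the threshold in edgeR with the block (adjusted p = 0.0424), where it was the 1 member called, and in the fit without length and GC trends (adjusted p = 0.00473), where 2 of 48 members were called (3.82% of all genes). Within sets it was −0.31 in set 2 and −0.50 in set 3. With no set term, it was −0.17 without the SP library of set 3 and −0.64 without that of set 2. Such fits keep scr of that set, so the difference between the sets enters these values. In set 1, *Psmd8* was 1728 in scr and 1509, 1897 and 1570.4 in the SP libraries, on both sides of scr.

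The other member called in SP in that fit was *Psme2* (chr14:55587441-55591113, minus strand), a subunit of the 11S activator (0.30, adjusted p = 0.0273). It stood at 527 and 511 in scr and at 646 and 625 in SP. Its partner gene *Psme1* (chr14:55578123-55581529, plus strand) stood at 672 and 593 in scr and at 801 and 698 in SP, a log2 fold change of 0.24 (blocked adjusted p = 0.262 by limma). *Psme2b*, a single-exon copy that may share reads with *Psme2*, was 0.28 higher. *Psme1* and *Psme2b* were called in no fit. These 3 genes were also above scr in 3p of set 2 (823, 670.3 and 247) but less so in set 3 (596, 577 and 199). In untreated cells they stood at 794, 629 and 205, inside the range of the siRNAs and above scr of the same set. In set 1, *Psme2* was 268 in scr and 188, 212 and 346 in SP, with 40 to 66 reads behind each value. Besides *Psmd8*, the members furthest below scr in SP were the beta gene *Psmb4* (−0.28) and the lid gene *Psmd7* (−0.20), neither of them called. *Psmb4* stood at 3196 and 3291 in scr and at 2941 and 2428 in SP. *Psma8* was furthest above (0.30, 108 and 94.1 in SP against 89.3 and 75.0 in scr). Over all 49 members the median in SP was −0.04, and 20 were higher.

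Of the immunoproteasome genes, *Psmb8* and *Psmb9* were low and *Psmb10* was at a level per kb (185) near the median of all genes (152). *Psmb8* (chr17:34197721-34201454, plus strand) stood at 80.9 and 54.3 in scr, 105 and 58.8 in SP, 121 and 79.3 in 3p, 109 and 72.2 in 5p and 102 and 65.7 in SATS. Untreated cells had 84.1 and luc 48.8. Every *Stag1* siRNA library was above the scr library of its set, and the libraries of set 3 were below those of set 2 with the same siRNA. The largest log2 fold change was with 3p (0.55, SE 0.13, adjusted p = 0.108 by limma with the block), which passed the threshold once length and GC trends were removed (adjusted p = 0.0342). Within sets, this fold change was 0.57 in set 2 and 0.54 in set 3. With 1 library left out and no set term, it was 0.25 without 3p of set 2 and 0.85 without 3p of set 3. It was 0.84 without scr of set 2 and 0.27 without scr of set 3. Such fits keep the other libraries of that set, so the difference between the sets enters these values. With length and GC trends removed, *Psmb8* was the 1 member of 48 called for 3p (2.33% of all genes). *Psmb10* was not called. It was above scr in 3p and SATS of both sets but below it in SP of set 3 and 5p of set 2. Its values were 253 and 199.9 in scr, 298 and 186 in SP, 306 and 219 in 3p, 245 and 202 in 5p and 273 and 251 in SATS. *Psmb9* lay between 13.1 and 24.1 in all 12 libraries. *Psmb5*, which *Psmb8* replaces, stood at 929.9 and 987 in scr, 1143 and 896 in SP, 1090.5 and 960.2 in 3p, 941 and 1022 in 5p and 1023 and 1100.2 in SATS, so that the sets crossed for SP.

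In 3p, the members furthest from scr in both sets beside *Psmb8* were *Psme2b* (0.32) and *Psma8* (0.26) above, and *Psmd8* (−0.13), *Psmd11* (−0.13) and *Psmb3* (−0.12) below, none called. In fits with no set term, the directions of *Psmd8* and *Psmb3* turned when the 3p library of set 3 was left out (0.13 and 0.01). The median over 49 members was −0.02, with 21 higher. The sets went apart, since 36 of 48 members were above scr in set 2 and 9 in set 3.

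None of the remaining regulators was called. *Psme3* was 3027 and 3125 in scr, 2903 and 2822 in SP, 2925 and 2876 in 3p, 2787 and 2879 in 5p and 2718 and 2677 in SATS, lowest in SATS in each set. *Psme4*, the PA200 activator of nuclear proteasomes, was 6301 and 8243 in scr, 5369 and 8688 in SP, 5725 and 8878 in 3p, 6665 and 8316 in 5p and 6713 and 8410.2 in SATS. The set separated its libraries more than the siRNA did. *Psmf1* was 483 and 541 in scr, 454 and 516 in SP, 475 and 529 in 3p, 524 and 533 in 5p and 490.3 and 444 in SATS.

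Over all 3 sets, SP was compared with scr with SP 1a, 1b and 1c averaged to 1 sample. By limma, 0 of 49 members were called without the block (0% of 15970 genes) and 0 with it (0% of all genes). At an unadjusted p under 0.05 there were 0 members without the block (0.526% of all genes) and 2 with it (5.85%). The median of the members was 0.00 and of all genes 0.01. The edgeR fit with the block also called 0 members (0.637% of all genes), with 2 at an unadjusted p under 0.05 (9.05%). The fit without length and GC trends called 0 of 47 (0% of all genes), with 3 at an unadjusted p under 0.05 (8.67%). The members that kept 1 direction in all 3 sets were led by *Psmb8* (0.69), *Psme2b* (0.51) and the alpha gene *Psma7* (0.18) above and by *Psmd8* (−0.29), *Psmc6* (−0.10) and *Psmg1* (−0.10) below. *Psmb8* had 1 read in scr of set 1 and 2 to 5 in the SP libraries. Without that scr library, in a fit with SP of set 1 and no set term, *Psmb8* was at −0.36 and *Psme2b* at −0.12. The median of the members was then −0.08.

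Within set 1 the single scr library allowed no test. There, 14 of 47 members were at least 1.2-fold above scr in SP 1a (20.9% of all genes), 10 in 1b (22.7%) and 8 in 1c (28.1%). As far below were 2 (22.8%), 1 (24.8%) and 6 (27.5%), below the background share in each library. That background was not matched to the members for level, and genes of low value carry a larger counting error. *Psmg3* was 127 in scr and 235, 248 and 209 in SP of set 1, with 19 to 77 reads a library, whereas its difference was under 0.10 in sets 2 and 3. The values of *Psmb5* were 951 in scr and 945, 923 and 741 in SP, those of *Psmb10* were 181, 183, 189.7 and 177, and those of *Psmb9* were 6.70, 14.1, 28.9 and 16.1. *Psmb8* was at 6.70, 9.40, 16.1 and 40.3. *Psme1* was at 408, 362, 363 and 491, *Psme3* at 2565, 2825, 2663 and 2359.6, *Psme4* at 6308, 5773, 6564 and 7345 and *Psmf1* at 482, 442, 556 and 620.1. *Psmc6* was at 1949, 2059, 1795 and 1756, and *Psma4* at 1386, 1725, 1701 and 1595.

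The controls bounded what 1 library against another can show. Luciferase siRNA differed from scr of set 3 by at least 1.2-fold for 0 of 48 members above (3.12% of all genes) and 0 below (2.27%), with a range of −0.18 (*Psmb5*) to 0.11 (*Psmg3*). Untreated cells differed from scr of set 2 for 2 members above (4.25% of all genes) and 0 below (4.66%), with a range of −0.21 (*Psme4*) to 0.28 (*Psmg4*). These pairs have no replicate. The untreated library held the highest fibroblast sum, given above, but all of set 2 was high for *Col1a1*. It stood at 4627 in untreated cells, at 1849 to 2907 in the other libraries of set 2 and at 155 to 367 in set 3. The part of this in the values above was not tested.

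Set 3 was set beside set 2 for the 5 siRNA groups that both held. *Psme4* was at least 1.2-fold higher in set 3 with all 5 siRNAs (0.32 to 0.69 in log2), 1 of 48 members against 6.97% of all genes. *Psmb2* (−0.59 to −0.31) and *Psmb8* (−0.82 to −0.57) were lower with all 5, 2 of 48 against 12.1% of all genes. *Psmb2*, a beta subunit, stood at 1055 to 1332 in the 6 libraries of set 2 and at 836 to 919 in those of set 3, without overlap. The fibroblast markers *Col1a1*, *Col1a2* and *Col3a1* were also higher in all of set 2 than in set 3, while *Thy1* and *Pdgfra* overlapped. The part of this in the set difference was not tested. In set 1, 11 of 48 members lay wholly below the 12 libraries of the other sets (11.3% of all genes) and 1, *Psma8*, wholly above (9.03%). The 11 included *Psme1* (362 to 491 against 593 to 823), *Psme2* (188 to 346 against 484 to 670.3), *Psmb8*, *Psmb6*, *Psmb7* and the ATPase genes *Psmc2*, *Psmc3* and *Psmc4*. *Psma8* stood at 153 to 282 in set 1 and at 75.0 to 108 in the others. The share of *Rn45s* and the depth differ between these sets in the same way, and their part was not tested.

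The spread of the members was close to that of all genes, and below it once the SATS libraries were left out. The genes compared were not matched for level, and genes of low value carry a larger counting error. The SD of log2(value + 1) within sets, over the 12 libraries of sets 2 and 3, had a median of 0.127 over 48 members and 0.132 over 11026 genes. Without SATS of set 3 it was 0.0973 against 0.123, and without both SATS libraries 0.0871 against 0.119. The most even members were genes of the 19S particle. *Psmc2* had an SD of 0.0453, with 0.716% of all genes lower, and lay between 2134 and 2399.6 in the 12 libraries, followed by *Psmd11* (0.0497) and *Psmd3* (0.0598). The widest were *Psmc6* (0.295), *Psmg4* (0.256), *Psmg3* (0.244) and *Psmb8* (0.240).

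**Figure D5:**
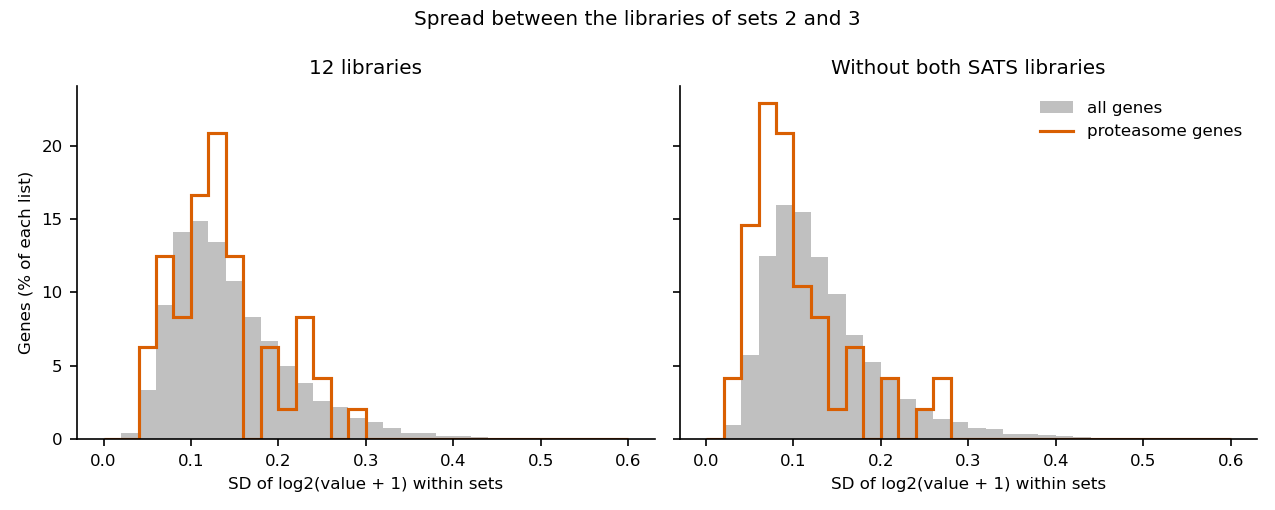
Share of genes (% of each list) by the SD of log2(value + 1) within sets, for all genes (grey) and for 48 proteasome genes (orange outline), over the 12 libraries of sets 2 and 3 (left) and without both SATS libraries (right). The orange outline moves to smaller SDs on the right, where its median is 0.0871 against 0.119 for all genes.

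Genes around the proteasome were read from lists of factors that work with it, none of which had a called gene in SP over 3 sets or, in any comparison, without the block. The calls that follow are those of limma with the block, whose shares over all genes are given above. Trends with length and GC content, which moved with the SATS result of the members, were not removed in that fit. Of 19 tested genes of other proteasome-associated factors, 0 were called with the block for SP and 0 for 3p, 1 was lower for 5p and 1 higher for SATS. The one in 5p was *Akirin2*, needed for the import of proteasomes into the nucleus, which stood at 777 and 759 in 5p against 1122 and 1077 in scr (−0.52, blocked adjusted p = 0.00329 by limma). It was also lower in 5p than in 3p (−0.45). Both values were below all other libraries of sets 2 and 3, which ran from 1022 to 1144. The one in SATS was *Shfm1*, which encodes the smallest lid subunit (0.70, blocked adjusted p = 0.0369 by limma). It stood at 711 and 767 in SATS and at 475 and 432 in scr, but in set 2 SP (741) and 3p (808) were above SATS, and untreated cells (618) and 5p (669.6) were above scr as well. *Pomp*, the chaperone that closes the 20S barrel, and *Adrm1*, a ubiquitin receptor of the base, were not called in any comparison. *Pomp* was 0.25 higher in SATS and *Adrm1* 0.16 lower.

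Of the 15 tested genes of the *Nfe2l1* pathway, 2 were lower in 5p with the block. *Nfe2l1* itself stood at 3339 and 3040.5 in scr and at 2669.7 and 2148 in 5p (−0.41, blocked adjusted p = 0.00976 by limma), the lowest value of its set each time, and *Mafk*, a small partner of this factor, was at −0.60. Both were also lower in 5p than in 3p (−0.30 and −0.70). In SP, *Nfe2l1* was at 3854 and 3274, above scr and not called, while *Maff* was called lower (−0.52). None of the 15 was called in SATS, where 4 were higher. Of the members with a TGACNNNGC match, *Psmb5* was at 0.03, *Psmc6* at 0.06, *Psme4* at 0.05, *Psmb6* at −0.06, *Psmd12* at −0.06 and *Psmd9* at −0.31 in 5p against scr. Of these, *Psmd9* alone was called, and only after length and GC trends were removed.

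Of 11 tested genes of ubiquitin and its E1 enzymes, 1 was called with the block, *Rps27a* in SATS (0.63), a fusion of ubiquitin with a ribosomal protein. It stood at 6831 and 8910.0 in SATS, above all other libraries of its set. *Ubb*, a ubiquitin gene that responds to stress, was not called. Of 13 tested genes of interferon response and antigen presentation, SP had 2 called higher with the block, the peptide transporter gene *Tap1* (0.57, 352 and 288 against 232 and 198 in scr) and *Tapbp* (0.47), which loads peptides. For *Tap1*, scr was the lowest library of each set. It stood at 300 and 292 in 3p, at 272 in untreated cells and at 252 in luc. *Ddx58*, a sensor of foreign RNA, was lower in 5p (−0.58) and in 5p against 3p (−0.51), and *B2m* (0.49) and *Isg15* (1.23) were higher in SATS, also with the block. *Isg15* was low, at 24.3 and 11.9 in SATS and at 10.1 and 4.36 in scr. In untreated cells *Isg15* stood at 15.3, and in 3p of set 3 at 11.9. *Irf1*, which drives the immunoproteasome genes after interferon, was called in no comparison. Among the markers of other cells, *Col1a1* was lower in 5p (−0.75) and *Col3a1* higher in 5p than in 3p (0.61), both with the block, and 0 of 5 endoderm and 0 of 7 stem cell markers were called.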

How the data were processed

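The RNA-seq libraries of mESCs in serum (16, grouped by their labels) entered the tests. The libraries of cells grown in 2i and a table of set 1 alone were not used here. The values deposited by the authors are a normalized signal made with HISAT2 (mm10) and featureCounts, namely the reads of a gene divided by a DESeq2 size factor of the library (the submitters' processing notes name edgeR 3.16.5 and DESeq2 1.14.1). Recovered reads were whole for 100% of values (tolerance 0.01).

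limma 3.58.1 (eBayes with trend, R 4.3.3) was run on log2(value + 1) of genes whose values summed to 10 or more, a scale that understates changes of low genes. Alternatives were edgeR 4.0.16 (quasi-likelihood) and DESeq2 1.42.0 on recovered reads, TMM factors without *Rn45s*, other pseudocounts and filters, other controls and left-out libraries. Same-numbered libraries correlated in their deviations from group means at 0.77 to 0.82 (mean 0.80, 3 pairs, SP over 3 sets) and at 0.81 to 0.93 (mean 0.86, 20 pairs, panel), so the set was treated as pairing them. Pairing comes from set numbers in the labels. With 2 sets a group, deviations mirror each other.

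Exon lengths, GC content and coordinates are from GENCODE M21 (GRCm38), over transcripts paired with RefSeq, which matched 17937 genes (96.1%) and all 50 members. Promoters are from RefSeq (GRCm38.p6). The fits were tested on simulated data. Members, lists and the rules for naming genes were chosen with earlier results of these data known. Values of libraries, some as ranges, are given for members called with or without the block and for *Psmb5*, *Psmb8*, *Psmb9*, *Psmb10*, *Psme1* to *Psme4* and *Psmf1*. Not every library is printed for each of them, and control libraries in particular are left out for some. For each comparison, the 3 highest and 3 lowest members with a mean of at least 50 and 1 direction in every set are named. Others were chosen after their values were seen. Depth bounds counting error only, since PCR reads are not independent molecules.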

Additional observations from a re-analysis of the deposited data

How the results depend on the processing

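Depth limits the values of set 1 and those of *Psmb9* and *Psmb11*. No alternative without the block, and no left-out library, gave a called member, and the lowest and highest counts over left-out libraries were 0 and 0 in each comparison. With the replicate block, called members went from 0 to 2 in SATS (2 by edgeR with the block) and to 1 in 5p against 3p (1 by edgeR), and to 1 in SP by edgeR. After length and GC trends were removed, they were 2 in SP, 1 in 3p, 4 in 5p and 4 in 5p against 3p, and the median in SATS was −0.00933. In the other comparisons the block left the count at 0.

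Leaving out libraries moved the median of the members between −0.0755 and 0.0400 in SP over 3 sets and between 0.0930 and 0.185 in SATS, and turned the direction of some named members. The ranges in log2 were −0.36 to 1.35 for *Psmb8* and −0.12 to 0.91 for *Psme2b* in SP over 3 sets, −0.40 to 0.13 for *Psmd8* and −0.25 to 0.0124 for *Psmb3* in 3p, −0.0587 to 0.60 for *Psmc3ip* in 5p and −0.30 to 0.0361 for *Psmd3* in SATS. In 5p against 3p they were −0.0697 to 0.35 for *Psmd7* and −0.0224 to 0.50 for *Psmd8*. These fits had no term for the set and kept the other libraries of that set, so differences between the sets enter their values. Other causes were not tested. With a pseudocount of 10, 0 members in place of 2 were past 1.2-fold in untreated cells. Of the other alternatives, 90 medians moved by less than the spread, and 531 fold changes of named members kept their direction and their side of the threshold, while 16 passed it under the block or after removal of length and GC trends.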
